A study of Mus musculus with 2 samples.

Results

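The segments described here are TRAJ21 to TRAJ30, a stretch of joining segments near the middle of the TRAJ array of the mouse T cell receptor alpha locus. A chain was counted as a member when its contig was annotated as TRA and its joining segment was numbered 21 to 30. By this rule 798 of 3782 TRA chains were members, 403 of 1862 in the WT library and 395 of 1920 in the Btla KO library. Of the 10 annotated segments, 8 were found in the contigs, and TRAJ25 and TRAJ29 had no chain in either library. The study sequenced T cell receptor transcripts of CD4 single positive (CD4 SP) T cells from the thymus to compare the repertoires of mice with and without BTLA, an inhibitory receptor of lymphocytes. One genotype was C57BL/6J wild type (WT) and the other C57BL/6-Btla KO (Btla-/-), both from mice aged 8 to 12 weeks. The cells were enriched by negative selection with a naive CD4 T cell kit, and TCR libraries were made by the 10x Genomics V(D)J workflow. There was 1 library per genotype, the number of mice behind each was not given in the sources used here, and no test between genotypes was possible. Intervals are exact (Clopper-Pearson) 95% binomial intervals, which cover counting error only and not the difference between mice.

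The alpha chain of a T cell receptor is assembled in double positive thymocytes by joining 1 of many TRAV genes to 1 of many TRAJ segments. The TRAJ array lies between the TRAV genes and the constant gene TRAC, and successive rearrangements on an allele replace the first join with a TRAV gene lying farther upstream and a TRAJ segment lying farther downstream, until positive selection or death of the cell. The TRAJ segment supplies the end of CDR3, the loop that contacts the peptide, and the whole of framework 4.

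In the GENCODE annotation of GRCm38 the 10 segments lay on the plus strand of chromosome 14 within 8.981 kb, and TRAJ21, the nearest to TRAC, ended 21.675 kb before it. Their germline sequences are shown because they set the residues and lengths reported below. Each line starts with the 28 bases of the recombination signal in front of the segment, which end in a heptamer of 7 bases, and capitals mark the bases that lie in CDR3 when the end is untrimmed, up to the codon of the closing phenylalanine. For TRAJ29 no such codon was found, and it has no capitals. The segments occupied chr14:54198790-54198846 (TRAJ21), chr14:54197248-54197307 (TRAJ22), chr14:54196081-54196140 (TRAJ23), chr14:54195638-54195700 (TRAJ24), chr14:54194815-54194871 (TRAJ25), chr14:54194490-54194549 (TRAJ26), chr14:54192303-54192361 (TRAJ27), chr14:54191661-54191725 (TRAJ28), chr14:54190946-54191005 (TRAJ29) and chr14:54189866-54189924 (TRAJ30), without the recombination signal.
TRAJ21: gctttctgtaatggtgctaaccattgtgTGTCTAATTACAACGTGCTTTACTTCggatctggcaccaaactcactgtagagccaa
TRAJ22: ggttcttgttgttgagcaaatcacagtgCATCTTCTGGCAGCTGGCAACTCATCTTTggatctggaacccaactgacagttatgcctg
TRAJ23: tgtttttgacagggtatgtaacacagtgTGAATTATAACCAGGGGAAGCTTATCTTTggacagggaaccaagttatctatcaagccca
TRAJ24: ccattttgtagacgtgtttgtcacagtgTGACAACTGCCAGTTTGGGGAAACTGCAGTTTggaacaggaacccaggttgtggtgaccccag
TRAJ25: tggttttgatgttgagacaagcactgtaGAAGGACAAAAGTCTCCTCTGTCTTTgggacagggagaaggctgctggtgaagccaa
TRAJ26: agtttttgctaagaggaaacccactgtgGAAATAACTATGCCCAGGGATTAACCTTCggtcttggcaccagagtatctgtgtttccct
TRAJ27: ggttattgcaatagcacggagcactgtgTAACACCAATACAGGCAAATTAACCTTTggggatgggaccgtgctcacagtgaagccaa
TRAJ28: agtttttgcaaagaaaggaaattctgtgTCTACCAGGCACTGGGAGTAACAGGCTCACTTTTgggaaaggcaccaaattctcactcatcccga
TRAJ29: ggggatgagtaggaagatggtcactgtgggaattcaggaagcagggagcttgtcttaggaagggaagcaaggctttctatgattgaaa
TRAJ30: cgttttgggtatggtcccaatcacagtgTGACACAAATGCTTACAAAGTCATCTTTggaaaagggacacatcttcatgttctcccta

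The segments without a chain each differed from the rest in these sequences, but at different places. TRAJ29 lacked the phenylalanine codon followed by the glycine motif (GGN NNN GGN) that 9 of the 10 segments held, as did 43 of 60 annotated TRAJ segments (71.7%). TRAJ25 held the motif, but its heptamer was CACTGTA, the only one of the 10 that did not end in GTG. The heptamers CACTGTG and CACAGTG stood in front of 7 of the 10 segments, against 22 of 60 (36.7%) over all annotated TRAJ segments. TRAJ21 with CATTGTG and TRAJ28 with TTCTGTG also lacked them but ended in GTG, and both segments were found in chains. These letters were read on the plus strand directly before each segment and describe the sequence only. Whether they bear on the use of a segment was not tested. A count of 0 in a library allows a share of up to 0.161% in WT and 0.156% in Btla KO, taking 3 counts as the limit, and the exact 95% interval reaches 0.198% and 0.192%. All 798 member chains carried the germline framework 4 of their segment, 31 bases long, unchanged.

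In all, 6003 contigs from 4040 cells were deposited for WT and 7101 contigs from 5077 cells for Btla KO, and a TRA chain was found in 1704 and 1798 cells. TRA contigs had fewer molecules in the Btla KO library: among members the summed unique molecular identifiers (UMIs, counts of captured transcripts) were 1755 in WT and 1301 in Btla KO, with a median of 3 per contig in both. The libraries held TCR transcripts only, so Btla expression could not check the genotype labels and no markers could check the cell type. The 2 libraries shared 30 cell barcodes, behind 4 WT and 6 Btla KO member chains.

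Together the segments took 21.6% of TRA chains in WT (19.8 to 23.6%) and 20.6% in Btla KO (18.8 to 22.5%), and the intervals overlapped. The stretch of comparable size on its TRAV side, TRAJ31 to TRAJ40, took 21.2% in WT and 19.1% in Btla KO, and that on its TRAC side, TRAJ11 to TRAJ18, took 14.1% and 17.4%. Within the stretch the use was uneven. TRAJ22, TRAJ23 and TRAJ30 led in WT with 71, 67 and 71 chains, and TRAJ23 and TRAJ22 led in Btla KO with 94 and 87 chains. TRAJ23, at 4.90% of TRA chains (3.97 to 5.96%), was the most used of all TRAJ segments in the Btla KO library, and it ranked 5 in WT at 3.60% (2.80 to 4.55%). TRAJ22 took 3.81% in WT (2.99 to 4.79%) and 4.53% in Btla KO (3.65 to 5.56%). TRAJ21, TRAJ26 and TRAJ27 formed a middle group with 51, 50 and 51 chains in WT and 50, 53 and 41 in Btla KO. TRAJ24, with 22 and 14 chains, and TRAJ28, with 20 and 15, were the least used of those found, and their intervals lay below those of TRAJ22 and TRAJ23 in both libraries.

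TRAJ30 was the only member whose intervals did not overlap between the libraries. It took 3.81% of TRA chains in WT (2.99 to 4.79%) and 2.14% in Btla KO (1.54 to 2.89%), a difference of -1.68 percentage points and a ratio of 0.560. Of the 41 TRAJ segments that reached 1% of TRA chains in WT or Btla KO, 2.44% had a Btla KO interval wholly below the WT interval, which is TRAJ30 itself, and 4.88% had one wholly above, none of them among the 8 members tested. By size alone 5 of 8 members were lower in Btla KO, as were 25 of 41 segments over the array, and the median difference was -0.21 points among members and -0.15 points over all. The TRAJ30 contigs also had fewer UMIs in Btla KO: 29.3% of them rested on a single UMI (16.1 to 45.5%), against 11.3% in WT (4.99 to 21%), with overlapping intervals. Among TRA chains that were not members this share was also higher in Btla KO, at 19.4% against 13.4% in WT. At least 3 UMIs were found for 41.5% of TRAJ30 contigs in Btla KO (26.3 to 57.9%) and 71.8% in WT (59.9 to 81.9%), with intervals apart. Among other TRA chains these shares were 54.3% and 68.4%. When contigs with under 3 UMIs were left out, the TRAJ30 difference was -2.36 points and the intervals of the libraries again did not overlap. That filter removed a larger part of the TRAJ30 contigs in Btla KO, so it cannot separate the difference from depth. The intervals overlapped when only the TRA chain with most UMIs of each cell was kept (-1.65 points) and in cells with exactly 1 TRA and 1 TRB chain (-1.17 points).

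**Figure D1:**
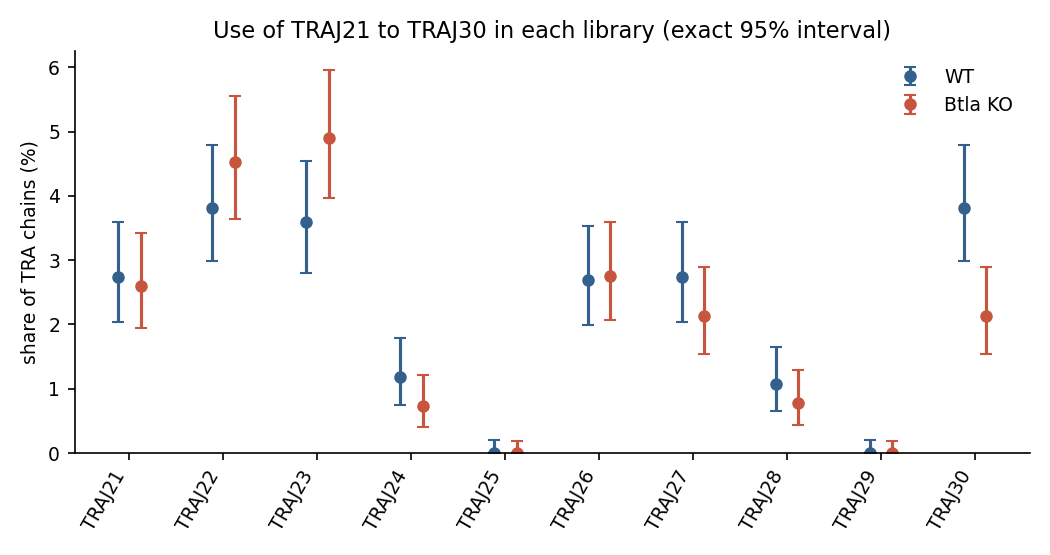
Share of TRA chains (%) with each of the 10 annotated segments in the WT and Btla KO libraries, with exact 95% intervals; TRAJ25 and TRAJ29 had 0 chains. The 2 libraries overlapped for every segment found except TRAJ30, at 3.81% in WT and 2.14% in Btla KO.

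By proximal share and median distance, the TRAV genes joined to these segments lay between those of the flanking stretches. The TRAV span used by the contigs, from 344.5 to 1793 kb upstream of TRAC, was cut by coordinate into 3 equal sections, of which the proximal one (up to 827.2 kb) lies nearest to the TRAJ array. A proximal TRAV gene was found in 34.2% of member chains in WT (29.6 to 39.1%) and 35.2% in Btla KO (30.5 to 40.1%). On the TRAV side the share was higher, 59.2% and 54.5% for TRAJ31 to TRAJ40 and 71.1% and 68.6% for TRAJ42 to TRAJ58. On the TRAC side it was lower, 22.8% and 21.3% for TRAJ11 to TRAJ18 and 17.1% and 9.90% for TRAJ2 to TRAJ9. The members' interval overlapped that of no other group in either library. The distal section was used by 17.4% of member chains in WT (13.8 to 21.4%) and 18.7% in Btla KO (15.0 to 22.9%), and the median distance from TRAC was 901.7 kb in WT and 918.5 kb in Btla KO. The distal share was 12.7% and 16.9% for TRAJ31 to TRAJ40 and 15.2% and 26.0% for TRAJ11 to TRAJ18. In WT the members thus lay above both flanking stretches, with overlapping intervals, and in Btla KO between them. Single members ranged from 23.5% proximal (TRAJ21) to 50.0% (TRAJ24) in WT and from 14.3% (TRAJ24) to 48.8% (TRAJ27) in Btla KO, with overlapping intervals throughout. TRAJ30, at the TRAV end of the stretch, had 35.2% and 46.3%, and TRAJ21, at the TRAC end, had 23.5% and 32.0%.

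Within the proximal section the members' share was low at the end nearest to TRAJ. Among TRA chains with a TRAV gene in the closest of 6 equal sections, 344.5 to 585.9 kb from TRAC, 6.98% used TRAJ21 to TRAJ30 in WT (4.65 to 9.99%) and 7.28% in Btla KO (4.62 to 10.8%). In the next section, up to 827.2 kb, the share was 22.9% in WT (19.2 to 26.9%) and 26.1% in Btla KO (22.1 to 30.4%). From there to 1551 kb it stayed between 24.9% and 26.6% in WT and between 19.2% and 22.5% in Btla KO. In the last section, at the far end, it was 40% (27.0 to 54.1%, 55 chains) and 27.6% (19.0 to 37.5%, 98 chains). Within the closest section the single genes differed. With both libraries together TRAV21-DV12, the closest, had 1 member chain among 78 chains, TRAV19 had 0 of 28, TRAV17 had 1 of 41, TRAV14-3 had 4 of 46, TRAV13-4-DV7 had 0 of 29 and TRAV16 had 1 of 47. Farther from TRAC in the same section TRAV6-7-DV9 had 13 of 94, TRAV4-4-DV10 had 10 of 101, TRAV9-4 had 5 of 36 and TRAV13-2 had 4 of 31. Between these genes TRAV7-6 had 2 of 33, TRAV5-4 had 2 of 55, TRAV3-3 had 1 of 18 and TRAV14-2 had 5 of 47. The share of single genes thus did not rise evenly with distance. In the next section TRAV10, 714.8 kb from TRAC, had 20 of 55, and TRAV13-1, 675.5 kb from TRAC, had 30 of 106. Lower there were TRAV12-3 with 12 of 72, TRAV14-1 with 8 of 49 and TRAV4-3 with 9 of 50. The lowest were TRAV11, 701.2 kb from TRAC, with 2 of 27, and TRAV15-1-DV6-1 with 2 of 14.

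Most TRAV genes of C57BL/6 exist in near-identical copies, marked D and N in their names, that lie in different sections, so an assignment error between copies would move a chain along the locus. The 5 proximal and 7 distal genes without such a copy are free of this limit. The 5 proximal ones lie at 344.5 to 443.6 kb from TRAC, within the closest section, where member chains were few by all genes as well. Of the 22 WT member chains with such a gene, 0 were proximal and 22 distal, and of the 29 in Btla KO, 2 were proximal and 27 distal. For TRAJ31 to TRAJ40 the proximal counts were 13 of 21 and 10 of 22, for TRAJ42 to TRAJ58 70 of 73 and 53 of 57, for TRAJ11 to TRAJ18 0 of 13 and 0 of 29, and for TRAJ2 to TRAJ9 1 of 10 and 0 of 26.

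**Figure D2:**
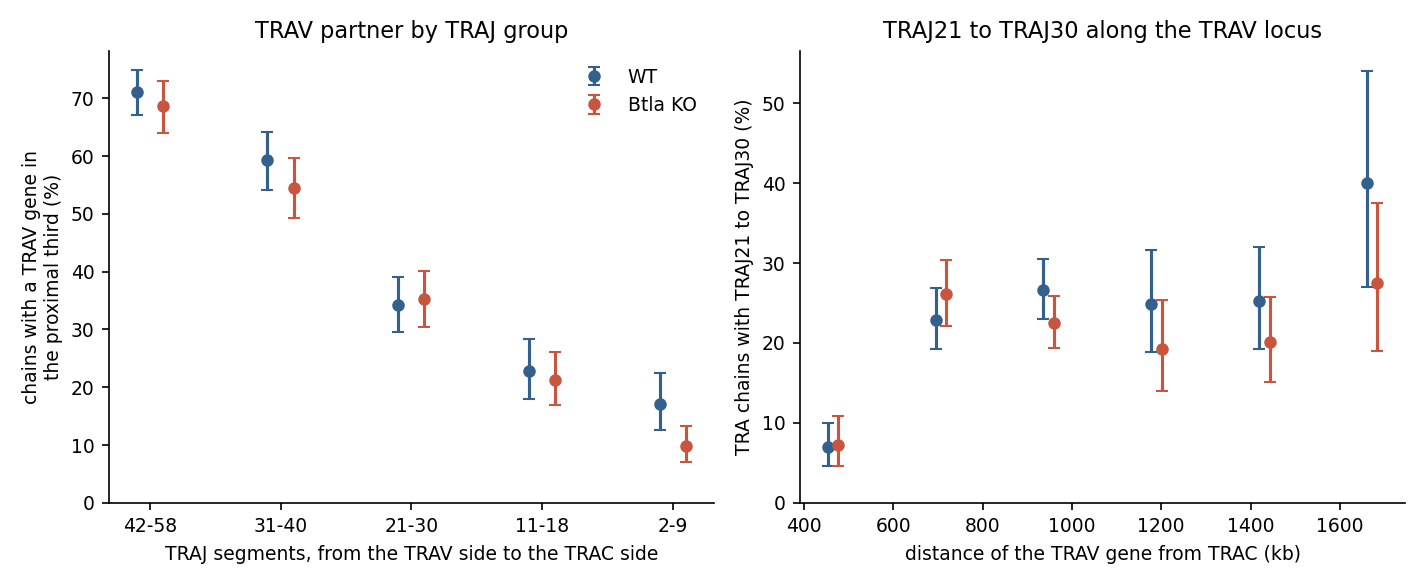
Left, share of chains (%) whose TRAV gene lies in the proximal section of the TRAV span, by group of TRAJ segments ordered from the TRAV side to the TRAC side. Right, share of TRA chains (%) that used TRAJ21 to TRAJ30 in 6 equal sections of the TRAV span, by distance of the section's centre from TRAC (kb). Points are the WT and Btla KO libraries, set slightly apart, with exact 95% intervals; TRAJ21 to TRAJ30 stood at 34.2% and 35.2% on the left, and at 6.98% and 7.28% in the closest section on the right.

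By subgroup the members drew on most of the TRAV repertoire, 18 of 20 subgroups and 82 of 89 genes. The leading subgroups were TRAV6 (17.6%), TRAV7 (15.4%) and TRAV13 (11.2%) in WT and TRAV7 (15.4%), TRAV6 (15.2%) and TRAV12 (14.7%) in Btla KO. No subgroup's share of member chains differed between the libraries beyond its intervals. The largest difference by value was in TRAV12, with 37 chains (9.18%, 6.55 to 12.4%) in WT and 58 (14.7%, 11.3 to 18.6%) in Btla KO. Against all other TRA chains, the largest differences with the libraries summed, among subgroups with at least 20 member chains and the same sign in both, were in TRAV7 (15.4% of members against 11.9% of other chains in WT, 15.4% against 15.0% in Btla KO), TRAV10 (3.72% against 2.40%, 4.05% against 2.49%) and TRAV4 (6.70% against 7.61%, 6.84% against 8.39%), all with overlapping intervals. Intervals of members and other chains were apart for TRAV17 and TRAV21 in WT and overlapped in Btla KO, and both subgroups fall under that minimum. TRAV21 made up 0 of 403 WT and 1 of 395 Btla KO member chains against 46 of 1459 and 31 of 1525 other chains. TRAV17 made up 0 and 1 member chains against 27 and 13 other chains.

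Single segments were each joined to between 8 and 15 subgroups in a library. TRAV6 led for TRAJ22 in both libraries, with 16 of 71 chains in WT and 16 of 87 in Btla KO, and TRAV7 led for TRAJ27, with 11 of 51 and 10 of 41. For TRAJ30 TRAV6 led in WT with 17 of 71 chains (23.9%, 14.6 to 35.5%) and shared the lead with TRAV14 in Btla KO at 7 of 41 each (17.1%, 7.15 to 32.1%). The leading subgroup of TRAJ21 was TRAV13 in WT, with 7 of 51 chains, and TRAV12 in Btla KO, with 10 of 50, and that of TRAJ23 was TRAV9 in WT, with 11 of 67, and TRAV7 in Btla KO, with 19 of 94. The leads within a segment rest on few chains.

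The TRAV subgroup profile of the members was set against those of the other groups by the total variation distance over the 20 subgroups, where 0 is an equal profile and 1 no subgroup in common. TRAJ42 to TRAJ58 was the farthest, at 0.192 with the libraries together, 0.204 in WT and 0.242 in Btla KO. The order of the nearer groups was not the same in the libraries. With both together TRAJ11 to TRAJ18 was the nearest at 0.0888, followed by TRAJ2 to TRAJ9 at 0.0933 and TRAJ31 to TRAJ40 at 0.102. In WT these distances were 0.0934, 0.119 and 0.142, and in Btla KO they were 0.146, 0.128 and 0.135. The WT and Btla KO members stood 0.116 apart from each other, more than the distance to TRAJ11 to TRAJ18 in WT and less than the other distances within a library. Such distances are raised by counting error, more so in smaller sets. At the level of single V-J pairs there were 260 in WT and 249 in Btla KO, of which 139 were found in both (53.5% of WT and 55.8% of Btla KO pairs). The most frequent were TRAV6D-6 with TRAJ30 in WT, with 6 chains against 2 in Btla KO, and TRAV12-2, TRAV6N-7 and TRAV7-5 with TRAJ23 in Btla KO, with 6 chains each against 0, 2 and 1 in WT. TRAV3N-3 with TRAJ30 had 5 WT chains and none in Btla KO. Each of these pairs was picked for its high count in 1 library. A lower count in the other library is therefore partly built in, and no difference is read from these few chains.

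CDR3 lengths of the member chains did not differ between the libraries by more than a small part of their spread. The mean length was 13.57 ± 1.34 amino acids (SD, n = 403 chains) in WT and 13.55 ± 1.32 (SD, n = 395) in Btla KO, and a length of 14 was the most frequent, in 34.2% of chains in both. Other TRA chains averaged 13.81 ± 1.51 and 13.76 ± 1.54, and 27.4% (25.1 to 29.8%) and 25.0% (22.8 to 27.2%) of them had 14 residues. The interval for 14 residues in Btla KO members, 29.5 to 39.1%, lay above that of other chains, and in WT, 29.6 to 39.1%, the intervals overlapped slightly. Single groups were closer. TRAJ2 to TRAJ9 had 14 residues in 33.3% of WT chains (27.4 to 39.7%) and 27.1% in Btla KO (22.7 to 31.8%), overlapping the members in both. Mean lengths were 13.71 and 13.57 for TRAJ11 to TRAJ18 and 13.33 and 13.24 for TRAJ31 to TRAJ40. Among the members the longest and shortest loops belonged to the segments with the longest and shortest germline parts. TRAJ28, with 34 germline bases in CDR3, had the longest loops, 15.25 ± 1.48 (n = 20) and 15.27 ± 0.96 (n = 15), followed by TRAJ24, with 32 bases, at 14.27 ± 1.08 (n = 22) and 14.43 ± 1.50 (n = 14). TRAJ21, with 26 bases, had the shortest, 12.92 ± 1.41 (n = 51) and 12.88 ± 1.42 (n = 50). TRAJ27 and TRAJ30, with 28 bases, averaged 13.71 and 13.44 in WT and 13.44 and 13.10 in Btla KO. TRAJ22, TRAJ23 and TRAJ26 all supply 29 bases, and their means were 13.75, 13.54 and 13.12 in WT and 13.84, 13.65 and 13.23 in Btla KO. Over the 8 segments, which share their libraries, mean length and germline length had a Pearson r of 0.929 (Spearman rho 0.786) in WT and 0.962 (rho 0.908) in Btla KO. The germline bases are themselves part of the CDR3, so a positive relation is partly built in.

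As a group the members lost fewer bases from the J end than other TRA chains, but not every segment did. On average 26.09 ± 3.15 germline bases remained in WT and 26.06 ± 3.05 in Btla KO, after loss of 2.64 ± 2.81 and 2.65 ± 2.67, and other TRA chains had lost 3.21 ± 2.88 and 3.25 ± 2.83. The J end was untrimmed in 29.0% of member chains in WT (24.6 to 33.7%) and 29.6% in Btla KO (25.2 to 34.4%), above the 22.3% (20.2 to 24.5%) and 20.8% (18.8 to 22.9%) of other chains, with intervals apart in both libraries. The group nearest to TRAC had similar values in WT: TRAJ2 to TRAJ9 had 27.9% untrimmed ends there (22.3 to 34.1%) with a mean loss of 2.69 bases, and 20.1% (16.2 to 24.4%) with 3.11 in Btla KO. TRAJ11 to TRAJ18 had 23.6% (18.6 to 29.2%) and 23.95% (19.5 to 28.9%), with intervals that overlapped those of the members. A germline base that was removed and then added back counts as kept, so trimming is understated in all groups. TRAJ22 was the least trimmed, with 47.9% untrimmed ends in WT (35.9 to 60.1%) and 52.9% in Btla KO (41.9 to 63.7%). TRAJ26, whose germline part is of the same length, was among the most trimmed, with 12.0% (4.53 to 24.3%) and 7.55% (2.09 to 18.2%), and a mean loss of 4.60 and 4.43 bases against 1.92 and 1.46 in TRAJ22. TRAJ21 followed TRAJ22 with 39.2% (25.8 to 53.9%) and 40% (26.4 to 54.8%) untrimmed ends. The intervals of TRAJ22 and TRAJ21 lay above those of other chains in both libraries. The excess of the group was not shared by all segments. By value TRAJ24 (13.6% and 7.14%), TRAJ26 and TRAJ28 (10% and 20%) lay below other chains in both libraries. TRAJ23 was close to other chains with 23.9% and 22.3%, and TRAJ27 had 19.6% and 31.7%. TRAJ30 had 36.6% in WT (25.5 to 48.9%) and 22.0% in Btla KO (10.6 to 37.6%), and kept 26.20 ± 2.14 and 24.98 ± 2.82 bases.

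On the other side of the junction the TRAV gene supplied 11.41 ± 2.65 CDR3 bases in WT and 11.42 ± 2.73 in Btla KO. Between both ends stood 3.29 ± 2.23 and 3.23 ± 2.20 bases that matched neither germline end, and 45 of 403 WT chains (11.2%, 8.26 to 14.7%) and 46 of 394 Btla KO chains (11.7%, 8.68 to 15.3%) had none. Among other chains the share with none was 14.0% and 14.1%, with overlapping intervals. The J segment thus made up 64.1% of CDR3 bases in the member chains of either library. TRAJ21, with the shortest germline part, had the most added bases, 3.92 in both libraries (SD 2.08 and 2.16), and only 2 and 1 chains with none. TRAJ22 had 2.89 ± 2.36 and 2.85 ± 1.85, with 15 of 71 and 12 of 86 chains without any.

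**Figure D3:**
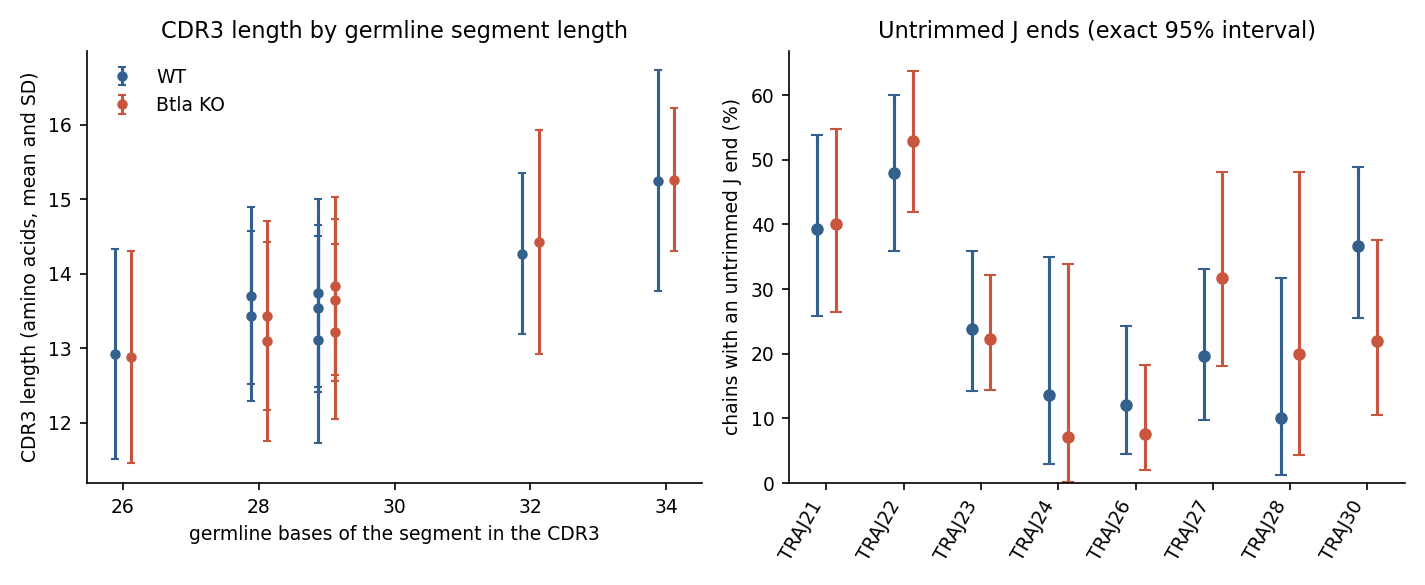
Left, mean CDR3 length (amino acids, bars are the SD over chains) of each of the 8 segments found against its germline bases in CDR3; the axis does not start at 0. Right, share of chains (%) with an untrimmed J end for each segment, with exact 95% intervals. WT and Btla KO points are set slightly apart; TRAJ28 with 34 bases averaged 15.25 and 15.27 residues, and TRAJ22 had the highest untrimmed shares at 47.9% and 52.9%.

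The residues that the segments write into CDR3 were read as the share of chains, both libraries together, that held the germline residue at each position, counted backwards from the closing phenylalanine. The 3 positions next to it were germline in every member chain. They end in tyrosine in TRAJ21, in isoleucine in TRAJ22, TRAJ23 and TRAJ30, in glutamine in TRAJ24, and in threonine in TRAJ26, TRAJ27 and TRAJ28. At position 4 TRAJ22 carries tryptophan, kept in 157 of 158 chains, TRAJ21 asparagine, kept in 98 of 101, and TRAJ30 tyrosine, kept in 112 of 112. TRAJ23, TRAJ24 and TRAJ27 have a lysine at position 3 and a glycine at position 4, both kept in all their 161, 36 and 92 chains.

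Towards the junction the segments separated. TRAJ21, TRAJ23, TRAJ26 and TRAJ27 each encode asparagine at 2 places before the phenylalanine. In TRAJ23 the asparagine at position 6 was kept in 96.9% of chains (92.9 to 99.0%) and the one at position 8 in 46.0% (38.1 to 54.0%), where glycine was the next most frequent residue with 22 of 161 chains. In TRAJ26 the asparagine at position 7 was kept in 65.0% (55.0 to 74.2%) and at position 8 in 26.2% (18.04 to 35.8%), again with glycine next in 16 of 103 chains. In TRAJ27 the values were 100% at position 6 and 39.1% (29.1 to 49.9%) at position 8. TRAJ22 carries serine at position 8, kept in 71.5% (63.8 to 78.4%). TRAJ30 carries aspartate there, kept in 63.4% of chains in WT (51.1 to 74.5%) and 36.6% in Btla KO (22.1 to 53.1%), with intervals that overlapped. In TRAJ23 the position 8 asparagine was kept in 38.8% in WT (27.1 to 51.5%) and 51.1% in Btla KO (40.5 to 61.5%). TRAJ28 and TRAJ24, the longest, still had their germline glycine and threonine at position 8 in 97.1% (85.1 to 99.9%) and 86.1% (70.5 to 95.3%).

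**Figure D4:**
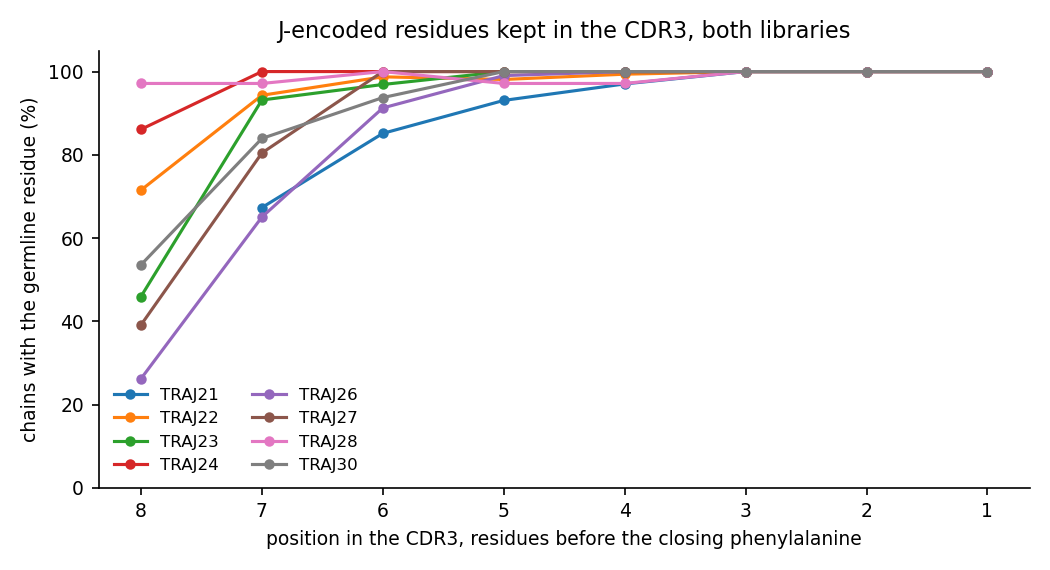
Share of chains (%), WT and Btla KO together, with the residue the germline segment encodes at each position before the closing phenylalanine of CDR3, 1 line per segment; TRAJ21 is drawn to position 7. All lines are at 100% for positions 1 to 3, and at position 8 they spread from 26.2% (TRAJ26) to 97.1% (TRAJ28).

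A TRB chain was found in 382 of 392 WT cells with a member chain (97.4%, 95.4 to 98.8%) and in 379 of 388 Btla KO cells (97.7%, 95.6 to 98.9%), and in 98.4% and 96.2% of other cells with a TRA chain. The leading TRBV subgroups in these cells were TRBV13 (15.4% of 416 TRB chains in WT and 14.4% of 416 in Btla KO), TRBV12 (12.5% and 11.5%) and the contigs annotated with the joint name TRBV12-2+TRBV13-2 (10.3% and 9.38%). With the libraries summed and by the same rule as for TRAV, TRBV13 and the joint name also had the largest differences from other cells with a TRA chain, which had 12.8% and 12.0% for TRBV13 and 6.91% and 7.74% for the joint name. For 0 of 19 TRBV subgroups were the intervals of member cells and other cells apart in either library. TRBJ2 segments made up 58.7% of the paired TRB chains in WT and 62.0% in Btla KO, against 60.2% and 60.7% in other cells, and the mean TRB CDR3 length was 14.0 and 14.1 amino acids (SD 1.5 in both).

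The median UMI count per member contig was 3 in both libraries, as among other TRA chains. The share of member contigs with at least 3 UMIs was 70.0% in WT (65.2 to 74.4%) and 55.4% in Btla KO (50.4 to 60.4%), and among other TRA chains it was 68.4% and 54.3%. Single segments lay between 45.0% (TRAJ28) and 86.4% (TRAJ24) in WT and between 41.5% (TRAJ30) and 71.4% (TRAJ24) in Btla KO.

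Cells are droplet barcodes here. No doublet caller was run, and the sources used here do not say how doublets were treated. More than 1 TRB chain was found in 8.67% of WT cells with a member chain (6.08 to 11.9%) and 9.54% in Btla KO (6.80 to 12.9%). In other cells with a TRA chain it was 7.47% (6.11 to 9.03%) and 9.22% (7.76 to 10.9%), with overlapping intervals. A second TRA chain was present in the cells of 63 of 403 WT member chains (15.6%, 12.2 to 19.6%) and 47 of 395 Btla KO member chains (11.9%, 8.88 to 15.5%), close to the 17.3% and 12.9% of other chains. Of these partner chains, 22 of 63 in WT (34.9%, 23.3 to 48.0%) and 14 of 47 in Btla KO (29.8%, 17.3 to 44.9%) were members too, whereas 16.2% (11.9 to 21.3%) and 16.8% (11.8 to 22.7%) of the partners of other chains were. The intervals were apart in WT and overlapped in Btla KO. A cell with both chains in the stretch enters from both sides, 11 cells in WT and 7 in Btla KO, which makes these intervals too narrow.

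Most member chains were found in a single cell. Of 392 distinct chains in WT 11 occurred in more than 1 cell (2.81%, 1.41 to 4.97%) and of 384 in Btla KO 9 did (2.34%, 1.08 to 4.40%), against 2.18% and 3.68% of other distinct chains. The highest number was 3 cells, reached by 2 chains of the Btla KO library, whose CDR3 sequences are shown with the bases that match the germline J end in capitals.
TRAV12N-2 with TRAJ23: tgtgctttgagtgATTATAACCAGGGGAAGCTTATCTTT
TRAV13-1 with TRAJ30: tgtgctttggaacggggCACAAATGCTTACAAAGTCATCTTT
The TRAV12N-2 chain had no added bases and the TRAV13-1 chain had 4. In each of them 1 of the 3 pairs of cells also shared a TRB chain, and over all repeated chains this held for 5 of 9 pairs with a TRB chain in WT and 5 of 12 in Btla KO.

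Between the libraries, 5 chains were identical in V gene, J gene and CDR3 nucleotides. This is 1.28% of the WT and 1.30% of the Btla KO distinct member chains, against 9 chains, 0.632% and 0.613%, among other chains. These counts are small. Without regard to the V gene 7 CDR3 nucleotide sequences were found in both, 1.80% of those in WT and 1.86% in Btla KO. Among other chains 20 were, 1.41% and 1.38%. Of the 7 member sequences, 4 had no added bases and none came from a barcode present in both libraries. The 7 are shown because they were found in mice of both genotypes. Bases matching the germline J end are again in capitals, and a letter tells apart sequences of 1 segment.
TRAJ22-a: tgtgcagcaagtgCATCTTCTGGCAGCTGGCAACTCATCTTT
TRAJ22-b: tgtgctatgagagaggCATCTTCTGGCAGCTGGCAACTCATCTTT
TRAJ22-c: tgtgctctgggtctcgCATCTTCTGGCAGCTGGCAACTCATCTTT
TRAJ23-a: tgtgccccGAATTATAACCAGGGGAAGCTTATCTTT
TRAJ23-b: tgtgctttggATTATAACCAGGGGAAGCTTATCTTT
TRAJ26: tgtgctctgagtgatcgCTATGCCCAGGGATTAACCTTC
TRAJ30: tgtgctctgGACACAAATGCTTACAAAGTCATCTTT
TRAJ22 supplied 3 of them, all with the untrimmed 29 bases of its germline end, and TRAJ23 supplied 2. TRAJ22-a was found in 1 WT and 4 Btla KO chains, annotated with TRAV14N-2 in WT and with TRAV14-2, TRAV14N-1 and TRAV14N-2 in Btla KO. At the amino acid level 23 CDR3 sequences with the same J segment were found in both libraries, 6.05% of those in WT and 6.30% of those in Btla KO, against 4.96% and 4.90% among other chains.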

How the data were processed

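TCR contigs of 2 libraries of thymic CD4 SP T cells, 1 per genotype, were analysed. Per the labels and the submitters' processing notes, the authors ran Cell Ranger 7.2.0 with a GRCm38 reference, and the deposited tables hold 1 row per filtered contig with V and J annotation, CDR3 sequences and the counts of reads and UMIs behind it. These counts are raw, and UMIs correct for PCR copies while reads do not. The authors' summary tables of CDR3 length and residue diversity were not used.

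Members were selected by chain and J gene name, and groups came from the sample labels. All V and J names matched GENCODE M21 on GRCm38, from which positions and germline sequences were read. The J part of a CDR3 was the longest match of its end to the germline segment, and the V part the match of its start to the V gene, placed by the last 12 bases of framework 3 in the last 60 bases of the gene (not found for 9 chains, 1 of them a member). Remaining bases were counted as added. Shares have exact 95% intervals (scipy 1.17.1 under Python 3.11.15 with pandas 2.3.3). A TRAJ segment was called higher or lower where the intervals of the libraries did not overlap, among segments with at least 1% in a library. Named were all members found, the 3 most used TRAV and TRBV subgroups in each library, the 3 TRAV and 2 TRBV subgroups with the largest difference from other chains (at least 20 member chains, 1 sign in both libraries), and CDR3 nucleotide sequences in 2 or more cells, most frequent first. V-J pairs, single TRAV genes near TRAJ, partner chains and sequences found in both libraries were added after their values were seen. The interval and the germline match were tested on simulated data. Members and lists were chosen with earlier results of these data known. Alternatives were contigs with at least 3 UMIs, distinct chains, cells with 1 TRA and 1 TRB chain, the TRA chain with most UMIs, barcodes of 1 library, and other definitions of position, length, match and depth.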

Additional observations from a re-analysis of the deposited data

How the results depend on the processing

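No paired analysis was possible because each genotype has 1 library, and differences between mice could not be separated from differences between genotypes. Over the alternatives, 56 of 66 recomputed main shares, means and medians stayed within the interval of the value reported. TRAJ30 was called lower in Btla KO except with the TRA chain with most UMIs per cell and in cells with 1 TRA and 1 TRB chain, where the number of members called was 0, and no member was called higher under any alternative tried. Among TRAV genes without near-identical copies, 0% of WT and 6.90% of Btla KO member chains were proximal (22 and 29 chains, from genes at both ends of the locus only). With the locus cut in 2 parts in place of 3, the proximal share was 71.0% in WT and 71.6% in Btla KO. The median CDR3 length was 14 in both libraries. With 1 mismatch allowed, 26.40 germline J bases remained in WT. With at least 3 UMIs for every contig, 93.5% of Btla KO member cells had a TRB chain. Median reads per member contig were 1152 in WT and 781 in Btla KO. Alternatives for single segments, added bases, trimming and other TRAJ groups were chosen after seeing the data; of these, the mean of added bases in WT moved to 3.06 with at least 3 UMIs. With 14 to 94 chains per segment and library, a segment's interval was up to 1.98 percentage points wide.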
